A study of Mus musculus with 14 samples.

Results

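The genes described here are 10 C-type lectin receptors of myeloid cells, taken by name from the 55487 genes of the count tables: Clec4a1, Clec4a2, Clec4a3, Clec4d, Clec4e, Clec4n, Clec5a, Clec7a, Clec10a and Clec12a. Their read counts were followed in LSK (Lin-Sca1+c-kit+) cells, the fraction of mouse marrow that holds the stem cells, in LK (Lin-c-kit+) cells, the committed progenitors that the labels also call MP, and in cultured mesenchymal stromal cells (MSC) of the marrow. LSK and LK cells were sorted from C57BL/6 Mx1Cre; Jak2VF/+ mice, in which 1 Jak2 allele carries the V617F mutation and is switched on by pI-pC through the interferon-inducible Mx1 promoter, so that PBS-treated controls carry the mutation too. Treatment was PBS or IL-1β (0.5 μg per dose, 3 intraperitoneal doses per week) over 16 weeks. The study generated its IL-1β-treated cohort by transplanting such marrow into irradiated C57BL/6 recipients. Mice of 6 to 8 weeks of age were used, and whether the sequenced mice were recipients is not given in the sources used here. MSC were grown for 21 days from the marrow of wild-type C57BL/6 mice and given PBS or IL-1β at 5 ng/ml for 72 h. They therefore differ from the sorted cells in genotype as well as in culture and exposure. Each of LSK and LK was represented by 3 PBS and 2 IL-1β libraries, and MSC by 2 and 2.

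C-type lectin receptors are surface proteins whose carbohydrate-recognition fold binds sugars, glycolipids and other ligands of microbes and dying cells. Clec4d (MCL), Clec4e (Mincle, a receptor for mycobacterial glycolipids) and Clec4n (Dectin-2, a receptor for fungal mannans) signal through the Fc receptor γ-chain, encoded by Fcer1g. Clec5a (MDL-1) pairs with DAP12, encoded by Tyrobp, and Clec7a (Dectin-1), the receptor for fungal β-glucan, carries its own tyrosine motif. All of these activate the kinase Syk and the adaptor Card9 or related steps, whereas Clec4a2 (DCIR) and Clec12a (MICL) carry inhibitory ITIM motifs that recruit phosphatases such as that encoded by Ptpn6. Clec4a1 and Clec4a3 are DCIR relatives without the ITIM, and Clec10a (MGL1) binds galactose-type sugars. These receptors are known from monocytes, macrophages, neutrophils and dendritic cells.

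On GRCm38 the members lay on 2 chromosomes. Clec4a1 (chr6:122921848-122934619), Clec4a3 (chr6:122952515-122969875), Clec4a2 (chr6:123106428-123143999), Clec4n (chr6:123229843-123247021) and Clec4d (chr6:123262111-123275265), all on the plus strand, and Clec4e (chr6:123281789-123289870, minus strand) form a cluster of 368 kb. Clec12a (chr6:129342691-129365303, plus strand) and Clec7a (chr6:129461591-129472779, minus strand) bound a cluster of 130 kb. Clec5a (chr6:40574894-40585821, minus strand) and Clec10a (chr11:70156197-70170834, plus strand) lay apart. Counts were made over the exons of each gene. The only gene overlapping a member was Gm44132, inside Clec4a2, which was listed at 0 counts. Paralogs can share reads: of the 50-base windows in the GENCODE M21 transcripts, 9.02% of those of Clec10a and 6.83% of those of Clec4a2 also occurred in transcripts of other genes. Mgl2 held 270 of the 287 shared windows of Clec10a, and Clec4a4 or Clec4b1 held 182 of the 202 of Clec4a2, so counts of these 2 members are uncertain to that extent. For the other 8 members the share was at most 0.686%.

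The RefSeq promoter windows (GRCm38.p6, 250 bases before to 50 after the start site) cover 8 of the 10 members; Clec4n and Clec10a have no entry. Windows are printed for Clec4e, which was called higher with IL-1β in LK and MSC, Clec5a, the member with the largest called change in LK, and Clec4d and Clec7a, the most abundant members of the MSC cultures with PBS, which changed in opposite directions there. Capitals mark matches, on either strand, to the letters GAGGAA (PU.1), TTGCNNAA (C/EBP), TGTGGT (RUNX), TGANTCA (AP-1) or GGANTTTCC (NF-kB). The windows lie at chr6:123289822-123290121 (Clec4e, minus strand), chr6:40585756-40586055 (Clec5a, minus strand), chr6:123261857-123262156 (Clec4d, plus strand) and chr6:129472730-129473029 (Clec7a, minus strand).
Clec4e: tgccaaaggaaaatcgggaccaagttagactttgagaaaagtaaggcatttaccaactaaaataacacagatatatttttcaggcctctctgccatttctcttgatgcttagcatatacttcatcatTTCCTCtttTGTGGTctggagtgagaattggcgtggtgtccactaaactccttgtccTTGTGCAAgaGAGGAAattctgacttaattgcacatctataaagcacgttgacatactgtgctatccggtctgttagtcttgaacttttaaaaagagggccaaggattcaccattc
Clec5a: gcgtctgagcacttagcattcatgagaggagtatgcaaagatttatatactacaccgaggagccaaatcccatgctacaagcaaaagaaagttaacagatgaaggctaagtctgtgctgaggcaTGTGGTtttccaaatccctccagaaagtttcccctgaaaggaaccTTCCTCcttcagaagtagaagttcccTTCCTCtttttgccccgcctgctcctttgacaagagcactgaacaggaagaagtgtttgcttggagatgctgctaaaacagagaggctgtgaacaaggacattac
Clec4d: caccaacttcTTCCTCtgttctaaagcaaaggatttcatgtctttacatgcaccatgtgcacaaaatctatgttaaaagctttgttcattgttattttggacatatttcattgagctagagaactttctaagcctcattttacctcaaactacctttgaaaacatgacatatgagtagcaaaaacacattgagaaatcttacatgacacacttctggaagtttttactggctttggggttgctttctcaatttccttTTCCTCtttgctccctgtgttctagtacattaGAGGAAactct
Clec7a: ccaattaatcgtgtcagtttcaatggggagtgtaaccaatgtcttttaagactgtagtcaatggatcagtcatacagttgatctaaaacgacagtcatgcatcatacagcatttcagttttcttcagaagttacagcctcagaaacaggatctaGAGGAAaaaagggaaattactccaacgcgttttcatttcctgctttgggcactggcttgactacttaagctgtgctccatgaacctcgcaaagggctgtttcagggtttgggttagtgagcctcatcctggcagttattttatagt

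The PU.1 letters, those of a factor needed for myeloid cells, occurred in 6 of the 8 windows and in 28.3% of all 32851 promoter windows of the table. The RUNX letters occurred in 5 of 8, with 16.8% over all windows. C/EBP letters were present in 2 (Clec4e and Clec12a, 10.8% over all) and AP-1 letters in 2 (Clec4a2 and Clec12a, 7.81%). The start sites of the Clec4a2 and Clec12a windows lie 16262 and 7553 bases from the start of the counted gene, against at most 16 for the others. The NF-kB letters, of the factor family that IL-1 receptors activate, were in 0 of 8 windows and in 1.25% of all. Matches of different motifs did not overlap. A match says only that these letters are present, and its absence nothing about the factor.

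Library totals were 12172400 to 16271408 counted read pairs in LSK with PBS and 4393233 and 8641124 with IL-1β. In LK they were 12804883 to 18544346 with PBS and 6367352 and 7652483 with IL-1β, so that every IL-1β library of these cells was shallower than every PBS library, and depth and treatment cannot be told apart. The PBS cultures of MSC gave 5834909 and 13155033 pairs, and the IL-1β cultures gave 30871055 and 11681794. LSK PBS replicate 2 stood apart: 21.2% and 21.8% of genes differed by more than 2-fold from replicates 1 and 3, against 4.05% between those 2. Every pair of libraries of 1 group differed by more than sampling noise. Labels do not say whether the MSC libraries came from separate cultures, so p-values there measure the spread between these samples only. Levels are given as CPM, counts scaled to a common library size by TMM over all 14 libraries, or as CPM per kilobase of exon (FPKM) where genes are compared. A gene was called when edgeR's quasi-likelihood test gave an adjusted p (Benjamini-Hochberg, over all genes tested) under 0.05 with a log2 fold change beyond 0.5, and a group whose libraries all hold at most 3 counts of a gene is at the floor.

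The receptor genes were low in LSK and LK cells and high in the MSC cultures. Their summed level was 66.8 to 94.3 CPM in LSK PBS libraries, 121 and 134 in LSK IL-1β, 73.2 to 150 in LK PBS, and 249 and 297 in LK IL-1β. In the MSC cultures it was 1553 and 1705 CPM with PBS and 2305 and 2337 with IL-1β. Clec12a led in LSK and LK under either treatment (mean 7.57 ± 1.49 FPKM, SD, n = 3, in LSK PBS and 33.9 ± 4.25, n = 2, in LK IL-1β), and its libraries did not overlap those of the next member. In LSK PBS, Clec4e (4.05 ± 1.85 FPKM, n = 3), Clec10a (2.88 ± 1.90) and Clec4d (2.48 ± 1.60) followed, with overlapping libraries. With IL-1β, Clec5a reached the third place in LSK (5.09 ± 0.75 FPKM, n = 2) and the place after Clec12a in LK (14 ± 1.07), where it was clear of its neighbours. Clec4a1, Clec4a3 and Clec4n had 5 counts or fewer in each of the 10 LSK and LK libraries.

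The order was different in the MSC cultures. Clec4d led with PBS (246 ± 0.05 FPKM, n = 2) and with IL-1β (581 ± 9.87). With PBS it was followed by Clec7a (201 ± 16.3) and Clec12a (101 ± 0.37), which did not overlap each other, and Clec4e was last (0.89 ± 0.66). With IL-1β, Clec4a1 (133 ± 7.39), Clec7a (128 ± 13.7) and Clec4n (115 ± 8.20) came after Clec4d. Clec7a overlapped both Clec4a1 and Clec4n, and Clec4n was clear of the next member, Clec12a.

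**Figure D1:**
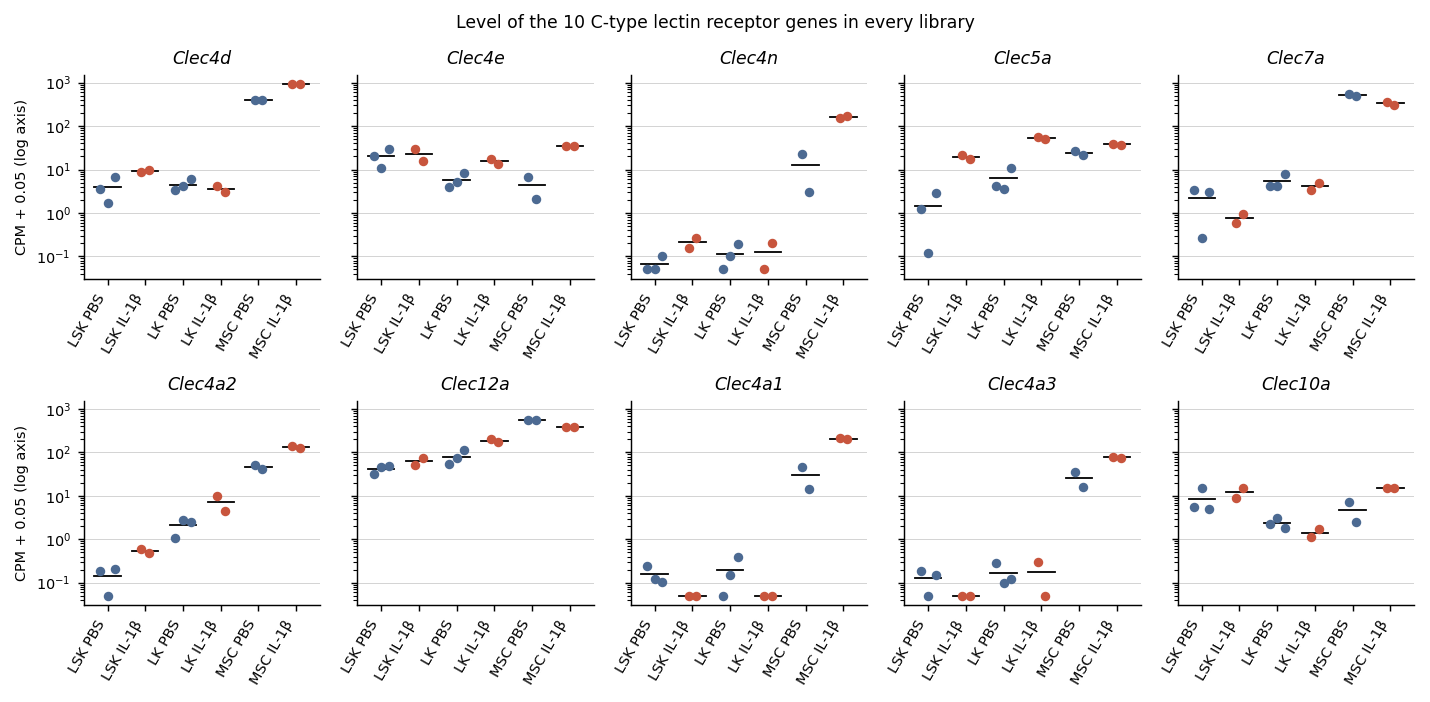
Level of each member in every library, as CPM + 0.05 on a log axis, by population and treatment (blue PBS, red IL-1β; each point 1 library, black bars the mean). Clec4a1, Clec4a3 and Clec4n sit near 0 in LSK and LK and above 2 CPM in every MSC library, and Clec5a is higher in every IL-1β library of LSK and LK than in any PBS library of the same cells.

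The MSC cultures were checked against marker genes. The 15 mesenchymal markers summed to 2073.5 and 4157 CPM with PBS and 5428 and 5756 with IL-1β, with 14 of 15 above the floor with PBS, where Lepr was at 0 counts in both libraries, and all 15 with IL-1β. The 18 monocyte and macrophage markers summed to 27004 and 31706 CPM with PBS and 54922 and 56216 with IL-1β, with 17 of 18 above the floor with PBS, where Ly6c2 was within it, and all 18 with IL-1β. Lyz2, the lysozyme of macrophages, alone gave 5821 and 8433 CPM with PBS and 24888 and 25043 with IL-1β. The label MSC therefore covers cultures in which macrophage markers exceeded mesenchymal ones, and no value of a receptor gene there can be assigned to stromal cells. As in all bulk samples, fewer cells of a type and less RNA per cell cannot be told apart.

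The first comparison asks how these receptors responded to IL-1β in each population. In LSK cells 0 of the 6 members tested were called, with 0.32% of all 13132 genes called higher and 0.312% lower. With DESeq2 at the same thresholds, the study reported many more transcripts higher and lower in these LSK libraries. At an unadjusted p under 0.05 edgeR gave 1 member, Clec5a, which DESeq2 called, and limma-voom called 0. In LK cells 2 of 7 rose, Clec4e and Clec5a, and 0 fell, against 6.77% of 12835 genes higher and 2.57% lower. In MSC cultures all 10 were tested: Clec4a2, Clec4d and Clec4e rose and Clec7a and Clec12a fell, where 7.14% of 13239 genes were called higher and 4.31% lower. PBS and IL-1β libraries were fully separated for 3 of 6 members in LSK (39.4% of all genes), 5 of 7 in LK (48.5%) and 10 of 10 in MSC (59.6%). The median log2 fold change of the members tested was 0.55 in LSK, 1.31 in LK and 1.55 in MSC, beside -0.06, -0.03 and 0.00 over all genes tested. Members that were not tested had too few counts, so these medians do not stand for all 10.

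**Figure D2:**
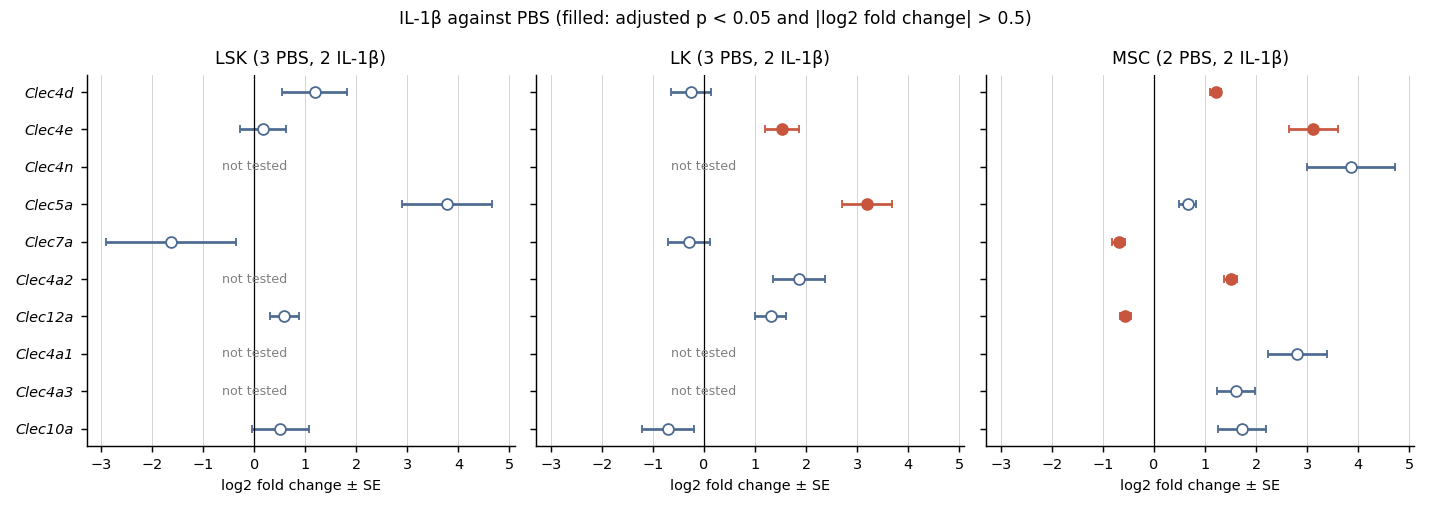
Log2 fold change of each member with IL-1β against PBS (horizontal axis, ± SE from edgeR) in LSK, LK and MSC. Filled points were called; Clec4e (1.53 in LK, 3.12 in MSC) and Clec5a (3.19 in LK) lie to the right, and Clec7a (-0.69) and Clec12a (-0.57) to the left in MSC.

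Of the receptors that use the Fc receptor γ-chain, Clec4e rose in LK and MSC. Its LK level was 3.82, 5.02 and 8.14 CPM with PBS and 17.5 and 13.7 with IL-1β, so the groups did not overlap (log2 fold change 1.53, SE 0.33, adjusted p = 0.0264, edgeR). This call was lost without any 1 of the LK PBS replicates 1 and 2 or the IL-1β replicates (adjusted p = 0.0668, 0.0953, 0.277 and 0.109 in that order), with log2 fold changes of 1.33 to 1.89 over all libraries left out, and when all 10 libraries of sorted cells were fitted together (1.53, adjusted p = 0.0909). In MSC cultures Clec4e stood at 6.70 and 2.10 CPM with PBS and at 35.6 and 34.3 with IL-1β (log2 fold change 3.12, SE 0.48, adjusted p = 0.0225). Both IL-1β cultures were above both PBS cultures, and the PBS cultures differed by more than 3-fold from each other. LSK cells held 20.4, 10.7 and 29.1 CPM with PBS and 29.2 and 16.0 with IL-1β, which overlap (log2 fold change 0.17, SE 0.46, adjusted p = 0.870).

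Clec4d, which forms complexes with Clec4e, rose in MSC cultures from 393 CPM in each PBS library to 917 and 940 (log2 fold change 1.21, SE 0.11, adjusted p = 0.00398). In LSK cells it was at 3.57, 1.63 and 6.69 CPM with PBS and 8.76 and 9.53 with IL-1β, without overlap but not called (1.19, SE 0.63, adjusted p = 0.340). The lowest of these PBS values is that of the library that stood apart. In LK cells the values overlapped, at 3.27, 4.12 and 5.93 CPM with PBS and 4.03 and 2.97 with IL-1β (-0.26, SE 0.39, adjusted p = 0.724). Clec4n had 0 to 2 counts in every LSK and LK library. In MSC cultures it was at 22.5 and 3.01 CPM with PBS and 155 and 172 with IL-1β, the largest fitted change of the members (3.86, SE 0.86) with a wide spread between the PBS libraries, and it missed the threshold (adjusted p = 0.0648).

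Clec5a, the DAP12 partner, rose in LK cells. It stood at 4.13, 3.56 and 11 CPM with PBS and at 56.5 and 50.7 with IL-1β (log2 fold change 3.19, SE 0.49, adjusted p = 0.0164, edgeR). The lowest IL-1β library was above 4 times the highest PBS library. Without either IL-1β replicate the call was lost (adjusted p = 0.132 without replicate 1 and 0.0656 without replicate 2). In LSK cells the values were 1.19, 0.07 and 2.88 CPM with PBS, the lowest being 1 count in the library that stood apart, and 21.6 and 17.5 with IL-1β. The groups did not overlap, yet the gene was not called (3.77, SE 0.89, adjusted p = 0.0861). It was called when LSK PBS replicate 2 (3.25, adjusted p = 0.0324) or replicate 3 (4.92, adjusted p = 0.00315) was left out. In MSC cultures Clec5a was at 26.2 and 21.0 CPM with PBS and 38 and 37.5 with IL-1β (0.66, SE 0.16, adjusted p = 0.0508). The study reported Clec5a as significantly higher with IL-1β in these LSK libraries and picked it for follow-up. Its direction in these libraries is therefore not independent evidence. The study also measured higher Clec5a by RT-qPCR in LSK cells of IL-1β-treated mice. That measurement had 3 biological replicates per group, more than the 2 IL-1β libraries of LSK. Whether the sequenced animals were among them is not given in the sources used here.

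Clec7a, the receptor with its own activating motif, fell in MSC cultures. It was at 560 and 499 CPM with PBS and at 362 and 311 with IL-1β (-0.69, SE 0.12, adjusted p = 0.0251), and the treatments did not overlap. LK cells held 4.05, 4.02 and 7.79 CPM with PBS and 3.42 and 4.76 with IL-1β (-0.30, SE 0.41, adjusted p = 0.698). In LSK cells Clec7a was at 3.37, 0.21 and 2.93 CPM with PBS and at 0.55 and 0.89 with IL-1β, between the PBS libraries (-1.63, SE 1.27, adjusted p = 0.518). The PBS value of 0.21 is that of the library that stood apart, and the other PBS libraries were above both IL-1β libraries. These LSK values rest on 3 to 57 counts a library.

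Of the inhibitory receptors, Clec12a fell in MSC cultures and Clec4a2 rose there. Clec12a was at 557 and 560 CPM with PBS and 380 and 394 with IL-1β (-0.57, SE 0.11, adjusted p = 0.0291). In LK cells it was higher in both IL-1β libraries (204 and 171 CPM) than in the PBS libraries (54.5, 72.4 and 112) but just missed the threshold (1.31, SE 0.30, adjusted p = 0.0525). It passed with DESeq2 (1.32, adjusted p = 3.02e-05), with limma-voom (1.37, adjusted p = 0.0226) and without LK PBS replicate 3 (1.64, adjusted p = 2.24e-05). In LSK cells it was at 32.4, 45.8 and 47.3 CPM with PBS and 52.0 and 74.7 with IL-1β, without overlap (0.59, SE 0.29, adjusted p = 0.302). Clec4a2 stood at 50.5 and 42.1 CPM in MSC cultures with PBS and at 139 and 128 with IL-1β (1.5, SE 0.13, adjusted p = 0.00358). In LK cells it was at 1.01, 2.66 and 2.48 CPM with PBS and 9.88 and 4.31 with IL-1β (1.85, SE 0.51, adjusted p = 0.0579). It passed there with DESeq2 (1.87, adjusted p = 0.0143), with no filter on low counts (1.83, adjusted p = 0.000413) and without PBS replicate 3 (1.99, adjusted p = 0.0203). Clec4a2 also passed with the replicate block (1.97, adjusted p = 0.0457), but between treatments the replicate numbers mark different animals. The log2 fold change of Clec4a2 in LK was 1.11 without IL-1β replicate 1 and 2.34 without IL-1β replicate 2. LSK cells held 0 to 3 counts of it with PBS and 5 and 2 with IL-1β, too few to test.

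Clec4a1 and Clec4a3 had enough counts to test in MSC cultures only, and Clec10a in all 3 populations. None of the 3 was called by edgeR in MSC cultures, whereas DESeq2 and limma-voom each called all 10 members there. Clec4a1 was at 46.3 and 14.2 CPM with PBS and 215 and 199 with IL-1β (2.81, SE 0.58, adjusted p = 0.0531). Clec4a3 was at 35.3 and 16.2 CPM with PBS and 79.5 and 75.1 with IL-1β (1.61, SE 0.37, adjusted p = 0.0592). Clec10a was at 7.10 and 2.46 CPM with PBS and 15.1 and 14.9 with IL-1β (1.72, SE 0.47, adjusted p = 0.0741). For each of the 3, the IL-1β libraries lay close together and above both PBS libraries, of which replicate 2 was the higher. In LK cells Clec10a was below the PBS libraries (2.18, 3.01 and 1.79 CPM) in both IL-1β libraries (1.1 and 1.64), at 9 and 11 counts (-0.71, SE 0.50, adjusted p = 0.433). In LSK cells it was at 5.36, 14.7 and 4.99 CPM with PBS and 8.65 and 15.3 with IL-1β, which overlap (0.51, SE 0.56, adjusted p = 0.656). The PBS value of 14.7 is that of the library that stood apart, and the other PBS libraries were below both IL-1β libraries.

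Leaving out either IL-1β library of the MSC cultures left 0 of 10 members called, whereas 10 were called without PBS replicate 2 and 9 without PBS replicate 3. Each of these fits leaves an arm with 1 library, which is assumed to vary like the other arm, and the arms differed in spread: 0.463% of genes were over 2-fold apart between the IL-1β libraries and 7.98% between the PBS libraries. Leaving out PBS replicate 2 gave the highest log2 fold change and leaving out PBS replicate 3 the lowest for Clec4n (5.74 and 2.81), Clec4e (4.04 and 2.33), Clec4a1 (3.86 and 2.11), Clec4a3 (2.25 and 1.08) and Clec10a (2.58 and 1.02). The log2 fold changes kept their sign for all 10 members in each of these fits. Some macrophage markers moved with treatment in these cultures: 7 of 17 tested rose, among them Csf1r (1.25), Adgre1 (1.32), Cd14 (1.40) and Lyz2 (1.77). Of the 17, 0 were called lower, 14 had a positive fold change, and the median was 0.38. Cd68 was lower in both IL-1β libraries (1038 and 1274 CPM) than with PBS (1320 and 1797). Of 14 mesenchymal markers tested, 1 rose (Dcn, 1.60) and 1 fell (Kitl, -0.72). Col3a1, not called, stood at 218 and 604 CPM with PBS and at 1670 and 1792 with IL-1β. The summed levels of both lists, given above, were higher with IL-1β. The part of macrophages and mesenchymal cells in the receptor values was not tested.

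Signalling partners of the receptors were measured in all populations. Fcer1g was at 815 and 860 CPM in MSC cultures with PBS and at 838 and 756 with IL-1β, and Tyrobp at 919 and 945 and at 773 and 749. In LSK and LK cells Fcer1g ranged from 5.54 to 17.8 CPM and Tyrobp from 10.1 to 30.8. Neither was called with IL-1β in any population (log2 fold changes -0.48 to 0.26 for Fcer1g and -0.48 to -0.10 for Tyrobp). Among the adaptors and kinases, those that rose in LK cells included Plcg2 (1.24) and Vav1 (0.73), which act after Syk, and Card9 (1.23, SE 0.25, adjusted p = 0.0275), the adaptor that links these receptors to NF-kB. Card9 was at 22.9, 43.7 and 37.4 CPM with PBS and 81.6 and 72.8 with IL-1β in LK. In LSK cells Card9 was not called (1.49, SE 0.29, adjusted p = 0.0610) and stood at 22.3, 41.6 and 32.9 CPM with PBS and 91.5 and 90.8 with IL-1β. In MSC cultures the kinases Fgr (1.38) and Src (0.65) rose. Of 3 inhibitory phosphatases, Inpp5d rose in MSC (0.55), and Ptpn6 and Ptpn11 were not called with IL-1β in any population.

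Of 34 other C-type lectin receptor genes, 13 were tested in LSK and not called. In LK cells 3 of 12 rose: Clec4b2 (3.95, SE 0.97, adjusted p = 0.0370), which lies between Clec4a2 and Clec4n, Mgl2 (1.58), the paralog of Clec10a, and Olr1 (3.12), a receptor for oxidised lipoprotein. In MSC cultures Clec14a (4.0), Cd302 (1.38) and the mannose receptor Mrc1 (1.09) rose, and Clec4b1 (-2.24, SE 0.41, adjusted p = 0.0271) fell. Clec4b1 lies between Clec4a3 and Clec4a2, so genes of the chr6 cluster changed in opposite directions in the same cultures. Between Clec12a and Clec7a, Clec1a was at a mean of 9.60 CPM in LSK PBS and 0.88 in LSK IL-1β (-3.34, adjusted p = 0.0641), and Clec9a at 1.95 and 0.16. Clec12b had 0 counts in every library.

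Neutrophil, monocyte and dendritic cell marker lists changed with IL-1β in the sorted fractions too. The 16 neutrophil markers summed to 1992 to 2810 CPM in LSK PBS and 8967 and 10409 in LSK IL-1β, and to 4344 to 9257 in LK PBS and 16867 and 19613 in LK IL-1β. Mpo alone gave 6591 and 6639 CPM in LSK IL-1β and 10478.5 and 11931 in LK IL-1β. Ly6g had 0 counts in every library. Of the 13 tested, 3 rose in LSK (Elane, Mpo and Prtn3) and 8 in LK, including Ctsg (2.13), Fcnb (3.38) and S100a8 (5.61). The 18 monocyte and macrophage markers summed to 387 to 542 CPM in LSK PBS and 211 and 275 with IL-1β, and to 380 to 561 in LK PBS and 259 and 261 with IL-1β. In LK 7 of 16 tested fell, among them Csf1r (-2.49), Irf8 (-2.59) and Klf4 (-3.25), and in LSK 1 of 15, Irf8 (-2.48). In LK, Clec4e and Clec5a rose where the neutrophil sum was higher and the monocyte and macrophage sum lower. Both sums moved the same way in LSK, where Clec4e overlapped between treatments (log2 fold change 0.17). Clec5a was higher in both LSK IL-1β libraries but not called (3.77). In MSC cultures, where the summed macrophage and mesenchymal markers were both higher with IL-1β, Clec4a2, Clec4d and Clec4e rose but Clec7a (-0.69) and Clec12a (-0.57) fell. The 11 dendritic cell markers summed to 283 to 411 CPM in LSK PBS and 101 and 182 with IL-1β, and to 102 to 129 in LK PBS and 82.7 and 87.1 with IL-1β. Of the dendritic cell markers, 1 of 7 tested fell in LSK (H2-Aa, -3.48) and 2 of 6 fell in LK (H2-Aa, -2.60, and Cd74, -1.93). In MSC cultures Bst2 (1.55) rose and Itgax (-2.18) fell. The part of these cell types was not tested.

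**Figure D3:**
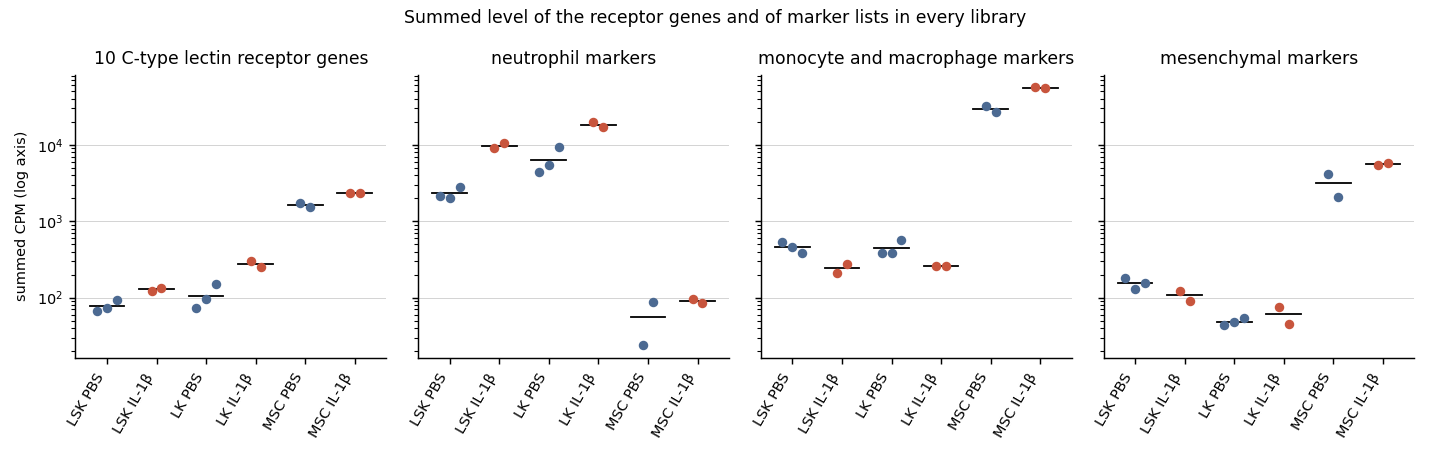
Summed CPM (log axis) of the 10 receptor genes and of 3 marker lists in every library, by population and treatment (blue PBS, red IL-1β; black bars the mean). Neutrophil markers are highest in LK with IL-1β (16867 and 19613). Monocyte and macrophage markers (27004 to 56216), mesenchymal markers (2073.5 to 5756) and the receptor genes are all highest in MSC.

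The next comparison sets LK against LSK cells under the same treatment. With PBS, Clec4a2 and Clec12a were higher in LK and Clec4e and Clec10a lower, 4 of the 7 members tested, beside 12.8% of 12737 genes called higher and 18.4% lower. With IL-1β, Clec4a2, Clec5a, Clec7a and Clec12a were higher and Clec10a lower, 5 of 7, beside 4.14% of 11743 genes higher and 4.18% lower. Libraries did not overlap for 6 of the 7 members with PBS (51.6% of all genes) and 6 of 7 with IL-1β (59.6%). These comparisons use the libraries of the IL-1β comparisons, and their values are set side by side only.

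Clec12a, at the levels given above, was higher in LK by 0.84 with PBS (SE 0.28, adjusted p = 0.0488) and by 1.56 with IL-1β (SE 0.24, adjusted p = 0.0150) on the log2 scale. The PBS call was lost in 5 of the 6 fits that left out a library (adjusted p up to 0.171). Clec4a2 was at the floor in LSK PBS and at least 10.9-fold higher in LK PBS (adjusted p = 0.0111), and the fitted log2 difference with IL-1β was 3.75 (SE 0.67, adjusted p = 0.0237). Without LK PBS replicate 2, 0 of the 7 members were called with PBS (adjusted p = 0.0597 for Clec4a2 and 0.0555 for Clec4e), and without LK PBS replicate 3, 2 were. Clec10a was lower in LK by a log2 difference of -1.92 with PBS (SE 0.51, adjusted p = 0.0217) and -3.12 with IL-1β (SE 0.49, adjusted p = 0.0168). The PBS call of Clec10a was lost without any 1 of the LK PBS replicates (adjusted p = 0.0850, 0.0577 and 0.0747 for replicates 1, 2 and 3).

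Clec4e was lower in LK with PBS (-1.92, SE 0.44, adjusted p = 0.0108), and with IL-1β the populations overlapped (-0.57, SE 0.34, adjusted p = 0.325). Clec5a was higher in LK with IL-1β (1.43, SE 0.22, adjusted p = 0.0160). With PBS it did not pass (2.05, SE 0.94, adjusted p = 0.130), but in the fit blocked on replicate number it did (2.47, adjusted p = 0.0191). Clec7a was higher in LK with IL-1β (2.54, SE 0.61, adjusted p = 0.0490), against 5 and 4 counts in the LSK libraries, and was not called with PBS (1.18, SE 0.80, adjusted p = 0.299). Clec4d did not differ beyond its spread with PBS (0.06, SE 0.56), and with IL-1β it was lower in both LK libraries without passing (-1.38, SE 0.38, adjusted p = 0.0658). It passed with the block (-1.39, adjusted p = 0.0281). With IL-1β, 2 members were called without LK replicate 1, where Clec4a2 (3.05, adjusted p = 0.261), Clec5a (1.37, adjusted p = 0.0570) and Clec7a (2.76, adjusted p = 0.278) were lost, and up to 7 in the other fits that left out a library. Clec7a was also lost without LK replicate 2 (2.28, adjusted p = 0.567).

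Dendritic cell markers differed between the populations as well. With PBS, 4 of the 6 tested were lower in LK, the MHC class II genes H2-Aa (-3.96) and H2-Ab1 (-1.94), their invariant chain Cd74 (-3.82) and the integrin Itgax (-1.65), and the transcription factor gene Zbtb46 was higher (3.29). With IL-1β, 2 of 6 were lower and 1 higher. Clec10a was lower in LK under both treatments, and the part of dendritic cells in its values was not tested.

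The sorts differ in the cells they hold. With PBS 10 of 11 stem and progenitor markers were lower in LK and all 10 erythroid markers higher, as were 5 of 9 neutrophil markers tested. Of the adaptors and kinases, 7 of 15 were lower in LK with PBS, including Syk (-1.51), Lyn (-0.87) and Plcg2 (-2.02), and Ptpn6 was lower as well (-0.74). Other C-type lectin receptors lower in LK with PBS were Clec1a (-4.39), Clec2d (-0.80), Cd72 (-2.47), Ly75 (-3.05) and Thbd (-1.08), and Olr1 was higher (3.46). The part of cell makeup in these differences was not tested.

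**Figure D4:**
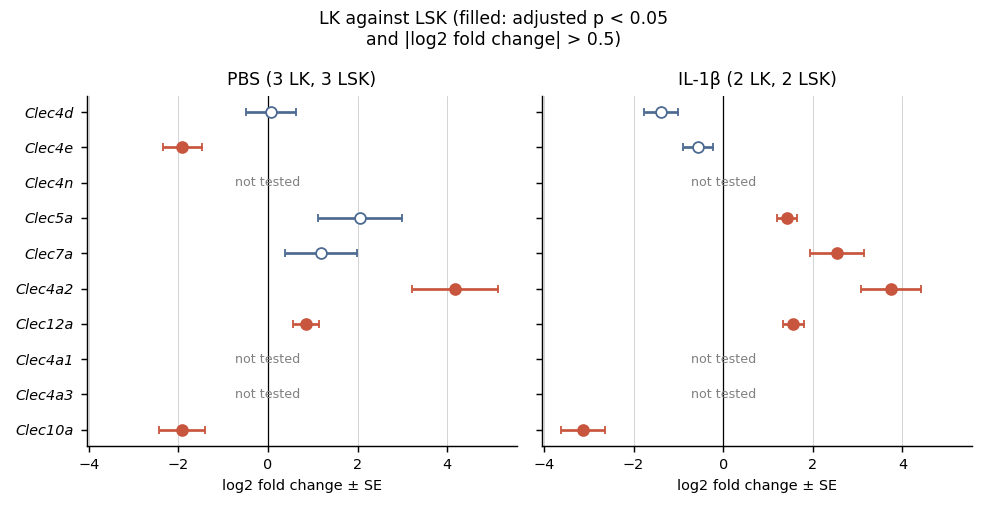
Log2 fold change of each member in LK against LSK cells (horizontal axis, ± SE from edgeR) with PBS and with IL-1β. Filled points were called; Clec4a2 and Clec12a lie to the right and Clec10a to the left in both panels, while Clec4e is called lower with PBS only.

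Whether the response to IL-1β differed between LK and LSK was tested as an interaction over the 10 libraries. None of the 7 members tested passed (0 called with edgeR, beside 0.0289% of 13839 genes), and at an unadjusted p under 0.05 there was 1, Clec4e. Its response was larger in LK by 1.40 on the log2 scale (SE 0.63, adjusted p = 0.342). For Clec5a the difference was -0.53 (SE 0.99, adjusted p = 0.847), so that its call in LK but not in LSK is not a shown difference. For Clec4d it was -1.41 (SE 0.79, adjusted p = 0.435) and for Clec12a 0.75 (SE 0.42, adjusted p = 0.432).

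Over the 10 LSK and LK libraries, the genes most like each member in log2 CPM were listed by Pearson's r as a description. These libraries share treatments and depths and may share animals. Clec5a was most like Pglyrp1 (r = 0.988), Serpine2 (0.981) and Ctsg (0.980), of which Pglyrp1 and Ctsg encode neutrophil granule proteins. For Clec12a they were Vcam1 (0.962), an adhesion molecule, Hsd11b1 (0.947) and Olr1 (0.942), and for Clec4a2 Hsd11b1 (0.951), Abhd5 (0.944) and Gm36161 (0.944). Clec4e was most like the integrin gene Itga6 (0.972), Cldn12 (0.967) and Fmnl3 (0.957). Clec10a was most like Pi4k2a (0.981), Clec7a like Hnrnpf (0.971) and Clec4d like Tctn2 (0.946), and each of these 3 members had at most 208 counts in any of the 10 libraries. Among the members, Clec4a2 and Clec12a had r = 0.922, and Clec7a and Clec10a had r = -0.877. LSK PBS replicate 2, the library that stood apart, is among these libraries, with 3 counts of Clec7a and 208 of Clec10a.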

How the data were processed

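RNA was sequenced from 14 libraries: LSK and LK cells (3 PBS and 2 IL-1β each) and MSC cultures (2 and 2). The authors depleted rRNA, made libraries with the NEBNext Ultra II kit and deposited the counts of read pairs on each gene as they were, without scaling. The submitters' processing notes name fastp 0.20.0, HISAT2 2.0.1, SAMtools 1.10 and featureCounts 2.0.2 on GRCm38, and the file headers give reverse-stranded counting on Ensembl genes. Groups came from the sample titles. A further IL-1β MSC library named in a header has no count column and was not used.

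Symbols matched 55141 of 55487 identifiers. Within each comparison, genes were filtered with filterByExpr, scaled by TMM and tested in R 4.3.3 with edgeR 4.0.16 (glmQLFit with robust estimation, glmQLFTest, Benjamini-Hochberg adjustment over all genes tested). The standard error is the size of the log2 fold change divided by the square root of F. The text names all members, the adaptors and phosphatases, the genes of the other lists that were called, the genes between clustered members, and for each member up to 3 genes with the highest r among those with a mean of at least 1 log2 CPM. Some results of the adaptor list are not reported here. Lepr, Ly6c2 and Ly6g are named as markers at the floor, and Cd68 and Col3a1 as markers not called, after their values were seen. Members, marker lists and tests were chosen with earlier results of these data known. The floor of 3 counts covers counting error only, and the tests were checked on simulated data.

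LSK and LK libraries with the same number had r of deviations from group means of 0.117, 0.103 and 0.372 with PBS and 0.126 with IL-1β. PBS libraries with different numbers had -0.299 to 0.142, so only replicate 3 stood above them all. With 2 libraries a group, the IL-1β pairs are mirrored (0.126 and -0.126) and tell little. A pairing by number is therefore not established, and the labels do not state it. Alternatives were DESeq2 1.42.0, limma-voom (limma 3.58.1), DESeq2 size factors, library totals, other filters, a joint fit, the replicate block and each library left out. Sequence windows were read with Python 3.11.15 and figures drawn with matplotlib 3.10.9.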

Additional observations from a re-analysis of the deposited data

Results flagged for a closer look

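Clec12a moved in opposite directions in the sorted cells and in the cultures. Every IL-1β library was above every PBS library in LSK (log2 fold change 0.59, not called) and in LK (1.31, not called), and every IL-1β library was below every PBS library in MSC (-0.57, called). Sorted cells and cultures also differ in genotype, culture and exposure, which cannot be told apart, and the difference between the populations was not tested.

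Clec10a was below its PBS libraries in both LK IL-1β libraries (-0.71, not called) and above them in both MSC IL-1β libraries (1.72, not called). The difference was not tested, LK cells and cultures differ as stated for Clec12a, and the LK values rest on 9 and 11 counts with IL-1β.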

How the results depend on the processing

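The number of members called moved with the setting, and the cause was not tested beyond what each fit changes. In LSK, where 0 were called, DESeq2, no filter on low counts, the replicate block and the joint fit of LSK and LK libraries each called 1, Clec5a, and the fits that left out a library called 0 to 1. In LK, where 2 were called, DESeq2 and the replicate block each called 4, and leaving out a library gave 0 to 4. In MSC, where 5 were called, DESeq2 and limma-voom each called 10, no filter on low counts 8, and leaving out a library 0 to 10. For LK against LSK the count was 4 with PBS, and 0 to 4 with a library left out, and 5 with IL-1β, 3 in the joint fit and 2 to 7 with a library left out. The interaction gave 0 in all settings run.

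Fold changes of single members changed sign only where they were uncalled. In LSK, Clec4e (0.17) was -0.0046 with library totals, -0.11 without PBS replicate 2 and -0.34 without IL-1β replicate 1, and -0.34 to 0.55 over all libraries left out. In LK, Clec4d (-0.26) was 0.0050 and Clec7a (-0.30) was 0.090 with the replicate block, and 0.0053 and 0.092 without PBS replicate 3, with ranges of -0.52 to 0.0053 and -0.54 to 0.092 over the libraries left out. In LK against LSK with PBS, Clec4d (0.064) was -0.036 with library totals, -0.31 without LSK replicate 2 and -0.21 without LK replicate 3, and reached 0.73 without LSK replicate 3. In the interaction, Clec4a2 was 0.17 without LSK PBS replicate 2 and 0.12 without LK IL-1β replicate 2, and Clec5a 0.0022 and 0.17 without LSK PBS replicate 2 and LK PBS replicate 3, with lowest values of -1.09 and -1.68 over the libraries left out. Of the other member fold changes refitted, 513 kept their direction and side of the threshold, 49 gained a call and 36 lost one.

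Between treatments, the replicate numbers mark different animals, so the block has no pairing to account for. The block there called 1 member in LSK and 4 in LK. Between LK and LSK the block called 5 members with PBS and 6 with IL-1β, adding Clec5a and Clec4d, and changed no other call of a member. No paired analysis was possible in MSC because its groups share only replicate number 2. Scaling by library totals moved the median of all LSK genes from -0.06 to -0.22, and the calls from 42 higher and 41 lower to 38 and 70, and in MSC the calls from 945 and 570 to 830 and 803. Depth limits Clec4a1, Clec4a3 and Clec4n in LSK and LK, where differences were not detectable at these counts.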
